A study of Mus musculus with 8 samples.

Results

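The distribution of H3K56ac, histone H3 acetylated at lysine 56, was examined at 10 genes of bone morphogenetic protein (BMP) signalling in mouse muscle stem cells (MuSCs): the ligands Bmp2, Bmp4 and Bmp6, the type I receptor Bmpr1a, the inhibitory Smads Smad6 and Smad7, and the targets Id1, Id2, Id3 and Id4. The members were the H3K56ac peaks that overlapped one of these genes, or the 30 kb on either side of it, by at least 1 bp. There were 170 such peaks among the 105600 peaks of the study's merged list, and 10 genes among 21938 protein-coding genes of GENCODE vM21. The windows of the 10 genes added up to 975 kb, of which peaks covered 373 kb (38.3%).

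MuSCs are the stem cells that lie beside muscle fibres and are marked by Pax7. They were sorted from freshly dissociated muscle of C57BL/6 mice by surface markers or by a YFP reporter, and H3K56ac was measured by ChIP-seq with 2 libraries in each of 4 groups (8 in all). Control H3K56ac and Control input came from control mice, whose genotype the labels do not give. The paper calls the control cells wild type for H3K56ac, but elsewhere defines control mice as Sirt6 fl/fl without Cre. Sirt6mKO H3K56ac and Sirt6mKO input came from Pax7-ICNCre Sirt6 fl/fl mice. In these mice a Cre without inducible control is driven by Pax7, so that the deacetylase SIRT6 is deleted in the whole muscle lineage and not in the adult stem cell alone. The merged list gives an interval for each peak but neither a genotype, a replicate nor a height. All values below therefore describe the union of the called regions, the depth of each library is unknown from it, and the difference between Sirt6mKO and Control could not be computed for any of the 170 peaks. The paper reports more H3K56ac peaks across the genome in Sirt6mKO MuSCs. It also describes peaks after loss of Sirt6 as broader than those of other histone marks. Its peak count for wild type MuSCs is far below the 105600 peaks of the merged list. The union may therefore hold many regions called in Sirt6mKO alone, and the shares and widths below need not be those of control cells.

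BMP ligands are secreted dimers that bring together type I and type II serine/threonine kinase receptors at the cell surface. The active type I receptor phosphorylates Smad1, Smad5 and Smad9, which join Smad4, enter the nucleus and bind BMP response elements. Id genes are the classic direct targets. Id proteins are helix-loop-helix factors without a DNA-binding basic region that pair with E proteins and so keep myogenic factors such as MyoD from DNA, and BMP signalling with Id expression is known to favour the expansion of muscle precursors over their differentiation. Smad6 and Smad7 are induced by the same pathway and block it at the receptor and at the Smads.

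The BMP response element was searched as GGCGNC or GACGNC followed, after 5 bases of any kind, by GTCT, on both strands. The windows of the 10 genes held 10 matches, of which 9 lay inside a peak. Of all 10 matches, 4 were near Id3, 2 near Id1, 2 near Id2, 1 near Id4 and 1 in Smad6. The windows of Bmp2, Bmp4, Bmp6, Bmpr1a and Smad7 held 0. The matches are printed because they are the sequence that the Id genes share under their peaks. Each is read in the direction of its gene from the GRCm38 assembly (the mm10 build) with 10 bases on either side, and capitals mark the bases matched to GGCGNC or GACGNC, with its free base N, and to GTCT. Positions give the first base of the element relative to the first annotated transcription start site (TSS).
Id1, -1045, upstream, chr2:152735196-152735230: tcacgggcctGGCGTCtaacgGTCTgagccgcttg
Id1, 3220, downstream of the gene, chr2:152739461-152739495: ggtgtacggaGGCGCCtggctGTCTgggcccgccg
Id2, -1728, upstream, chr12:25098844-25098878: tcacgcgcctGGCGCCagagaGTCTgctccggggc
Id2, 4082, downstream of the gene, chr12:25093034-25093068: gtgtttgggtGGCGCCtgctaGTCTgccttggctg
Id3, -2957, upstream, chr4:136140530-136140564: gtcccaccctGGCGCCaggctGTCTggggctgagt
Id3, -182, upstream, chr4:136143305-136143339: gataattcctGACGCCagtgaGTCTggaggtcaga
Id3, 1296, intron 2, chr4:136144783-136144817: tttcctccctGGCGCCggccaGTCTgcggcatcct
Id3, 4484, downstream of the gene and outside the peak, chr4:136147971-136148005: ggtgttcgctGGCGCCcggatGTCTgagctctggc
Id4, 1662, intron 2, chr13:48262880-48262914: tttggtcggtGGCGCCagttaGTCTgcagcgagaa
Smad6, 53166, intron 3, chr9:63968869-63968903: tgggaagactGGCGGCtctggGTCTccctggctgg

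All 10 matches pointed the same way as the gene beside them. A T came just before the element in 9 of 10 and a G just after it in 9 of 10, and both letters were present in 8 of 10 (80.0%), the exceptions being the downstream match of Id1 and the match in Smad6. Of the 699 matches inside all peaks of the list, 65 (9.30%) had both letters, and of the 4181 matches on the assembled chromosomes 454 (10.9%) did. These flanking letters were looked at after the matches had been read. The region around the upstream match of Id1, the inhibitor of DNA binding whose promoter is the textbook BMP target, is given at 200 bases (chr2:152735113-152735312, plus strand, -1138 to -939 from the TSS), all of it inside 1 peak, with the element in capitals.
Id1 upstream region: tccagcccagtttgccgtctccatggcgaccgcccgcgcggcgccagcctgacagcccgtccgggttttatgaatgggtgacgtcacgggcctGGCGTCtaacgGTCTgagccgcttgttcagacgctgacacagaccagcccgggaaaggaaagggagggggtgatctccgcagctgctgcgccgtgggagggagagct

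The labelled cell type was checked first against its markers. All 8 MuSC markers (Pax7, Myf5, Cd34, Vcam1, Itga7, Itgb1, Cdh15 and Calcr) had a peak over a TSS, where 62.1% of protein-coding genes had one. Peaks covered between 16.5% (Cdh15) and 76.8% (Pax7) of the marker windows. Of 5 genes of cells that the sort removes or does not select, Pecam1 and Pdgfra had a TSS peak. The covered share was 21.7% for the endothelial gene Pecam1, 9.99% for Ly6a (Sca1), 6.29% for Pdgfra, 2.85% for Cdh5 and 2.76% for Ptprc (CD45). Pecam1 was thus above the MuSC marker Cdh15, and the covered share did not fully separate the lists. What part other cells have in the peaks at the BMP and Id genes was not tested.

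H3K56ac peaks were present over a TSS of all 10 BMP and Id genes, against 62.1% of protein-coding genes, and within 3 kb of a TSS of all 10, against 67.8%. The extent of coverage separated the members far more than the presence of a TSS peak did. In descending order, peaks covered 66.1% of the window of Id3, 48.8% of Bmp6, 47.9% of Id1, 47.8% of Bmp4, 46.0% of Smad6, 32.9% of Smad7, 32.5% of Bmpr1a, 25.6% of Id2, 11.4% of Id4 and 5.74% of Bmp2. The median protein-coding gene had 9.45% (quartiles 1.53% and 19.7%), so 8 members were above the upper quartile, Id4 was between the median and the upper quartile, and Bmp2 was below the median. For the gene alone, where the upper quartile of protein-coding genes was 23.8%, all 10 members were above it, with Bmp2 at 32.5% and Id4 at 40.8%. Bmp6, Id1 and Bmp4 lay within 1 percentage point of each other, and so did Smad7 and Bmpr1a. Because the list does not separate the replicates, no error can be attached to these shares, and neighbours that close were not ordered further.

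**Figure D1:**
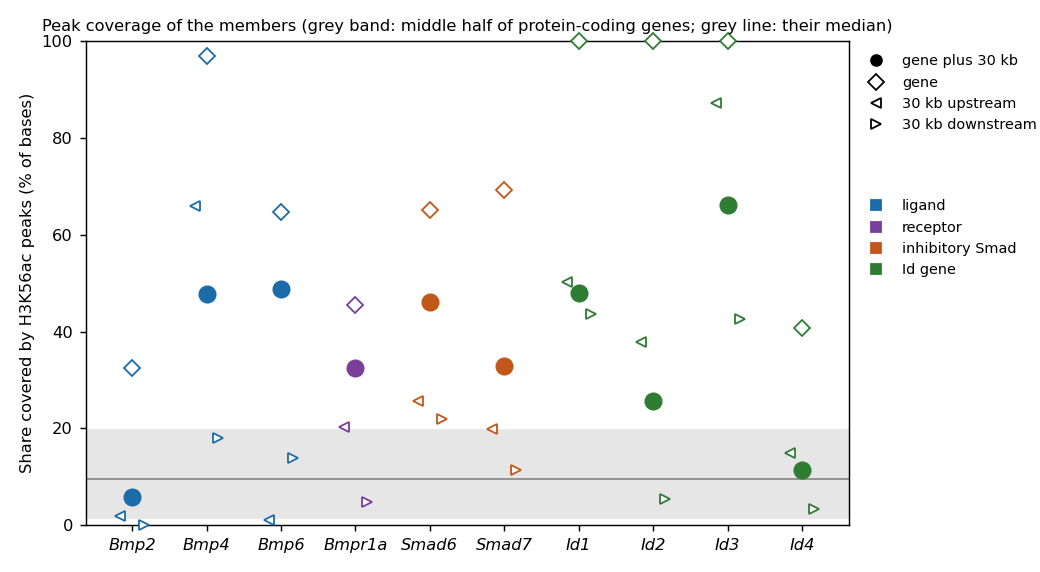
Share of bases covered by H3K56ac peaks for each of the 10 genes, in percent, for the gene plus 30 kb (filled circles), the gene alone (diamonds) and the 30 kb upstream and downstream (triangles), with the median (line) and quartiles (band) of the gene plus 30 kb over 21938 protein-coding genes. Id3 reaches 66.1% and Bmp2 stays at 5.74%, below the median line of 9.45%.

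The roles overlapped in their coverage. The 3 ligands ranged from 5.74% to 48.8% (median 47.8%, 46 peaks), the receptor was at 32.5% (29 peaks), the inhibitory Smads were at 32.9% and 46.0% (median 39.4%, 48 peaks) and the 4 Id genes ranged from 11.4% to 66.1% (median 36.8%, 47 peaks). Within the ligands and within the Id genes the spread between members was larger than any difference between role medians. Peaks per 10 kb were 1.30 for the ligands, 1.87 for the Id genes, 1.90 for the receptor and 2.21 for the inhibitory Smads.

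Member peaks were wider and closer together than the list as a whole. Their median width was 1286 bp against 974 bp for all peaks, 20 of 170 (11.8%) were at least 5 kb wide against 6.00%, and 145 (85.3%) had a neighbour less than 1 kb away against 65.8%. A peak of at least 5 kb over a TSS was found at 7 of 10 members (Bmp4, Bmp6, Smad6, Smad7, Id1, Id2 and Id3), where 15.2% of protein-coding genes had one. Any annotated TSS counts here: at Bmp6 the peak is one of 5506 bp over an internal TSS (47547 to 53052), and at Bmp4 the widest peak near a TSS measured 7098 bp with all transcripts and 2607 bp with protein-coding transcripts. A peak of at least 10 kb in the window was found at 3 members, Bmp4, Bmp6 and Id3, against 5.47%. The ligands had the largest share of wide peaks, with 9 of 46 at 5 kb or more (19.6%). Of these 9, 7 were at Bmp6, 2 at Bmp4 and 0 at Bmp2, so the share rests mostly on Bmp6, the longest of the 10 genes. The share was 6 of 47 in the Id genes (12.8%), 4 of 48 in the inhibitory Smads (8.33%) and 1 of 29 in Bmpr1a (3.45%).

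**Figure D2:**
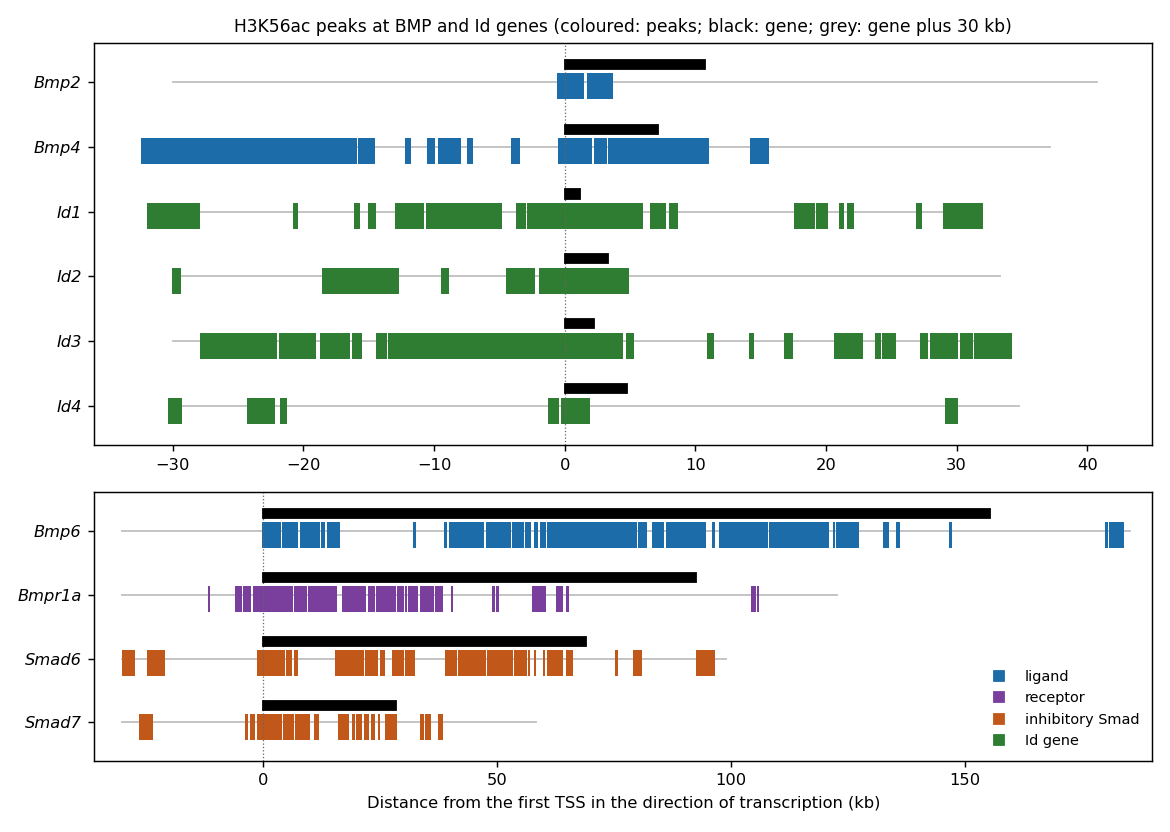
Map of the 170 peaks (coloured blocks) by distance in kb from the first TSS in the direction of transcription, with the gene in black and the gene plus 30 kb as a grey line; peaks less than about 100 bp apart look joined at this scale. Short genes are in the upper panel and long genes in the lower, and coverage at Bmp6 and Bmpr1a falls inside the gene while coverage at Bmp4 and Id3 extends far upstream.

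Among the ligands, Bmp2 and Bmp4 are close relatives of each other, but peaks covered 5.74% of the window of Bmp2 and 47.8% of that of Bmp4. Bmp2 (ENSMUSG00000027358.6, chr2:133552159-133562885, plus strand) had 2 peaks. One of 2076 bp ran from -582 to 1493 over its only TSS and the first exon, and one of 1987 bp from 1716 to 3702 covered the second exon. No other peak lay in the 30 kb before or after the gene, where 1.94% and 0% of bases were covered. Its coverage was at the 38.6th percentile of protein-coding genes and at the 35.5th among 7731 genes of similar length (within 2-fold). That place depended on the flank, and the percentile was 22.1 with flanks of 100 kb, 58.1 with flanks of 10 kb and 82.0 for the gene alone.

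Bmp4 (ENSMUSG00000021835.15, chr14:46383520-46390669, minus strand) had 13 peaks, and 97.0% of the gene was covered. A peak of 2607 bp (-476 to 2130) covered the TSS of the full-length transcript, and a peak of 7098 bp (3306 to 10403) covered the remaining exons, the 3' end and the start of a short annotated transcript within the gene. The widest peak, of 13294 bp, lay upstream, from -29200 to -15907, with no annotated TSS of a coding gene within 3 kb of it. It formed a run of 4 peaks less than 1 kb apart that was 19.8 kb long and passed the edge of the window. Coverage was 66.0% in the 30 kb upstream, while downstream the last peak ended 15674 bases from the TSS. The gene ranked at the 98.0th percentile, but the peak of 7098 bp and the 2 peaks beyond it lie within 3 kb of the TSS of the predicted coding gene Gm15217, and without these 3 the covered share was 34.1%.

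Bmp6 (ENSMUSG00000039004.6, chr13:38345107-38500302, plus strand), known best for inducing hepcidin in the liver, had the largest number of peaks, 31, of which 7 were at least 5 kb wide. Coverage was inside the gene (64.7%) and not before it (0.947% of the 30 kb upstream). The TSS peak of 4195 bp ran from -284 to 3910. The first intron, 123 kb long, held 26 peaks and was 75.9% covered, while the second intron was 31.6% covered and the fourth 5.48%. That first intron holds the widest peak of all 10 genes, 19290 bp from 60704 to 79993, which ranks 128th of the 105600 peaks by width, and 2 more of 12239 and 10494 bp. With peaks less than 1 kb apart joined, 12 peaks formed a region of 56.2 kb between 38.6 and 94.7 kb from the TSS. The peak of 12239 bp covers the start of the antisense transcript 4930579J19Rik, and the 2 peaks farthest downstream lie at the promoter of Txndc5, a disulfide isomerase of the endoplasmic reticulum.

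**Figure D3:**
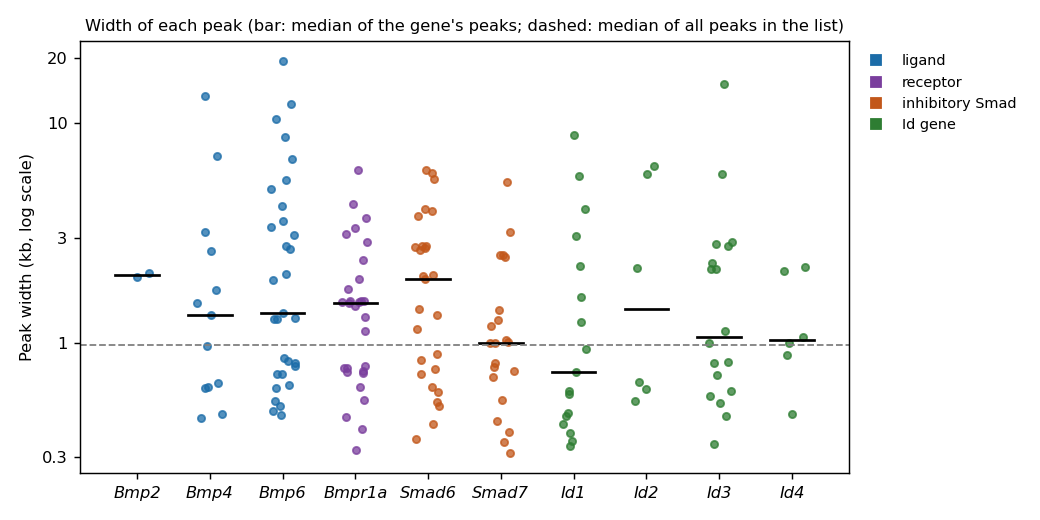
Width in kb (log scale) of each peak of the 10 genes, with the gene's median as a bar and the median of all 105600 peaks (974 bp) as a dashed line. The 4 peaks above 10 kb other than that of Id3 belong to Bmp4 and Bmp6, and both peaks of Bmp2 are near 2 kb.

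Bmpr1a (ENSMUSG00000021796.15, chr14:34410734-34503341, minus strand) encodes the type I receptor ALK3, to which BMP2 and BMP4 bind. It had 29 peaks, but only 1 of them reached 5 kb (6122 bp, from 9665 to 15786). Its promoter was split: peaks of 2871 bp (-2217 to 653) and 3329 bp (669 to 3997) met at a gap of 15 bp, and the TSS of the main transcript lay in that gap, while 2 of its 4 annotated TSSs were covered. The first intron (41.8 kb, 17 peaks) was 82.2% covered, the second 10.8%, the third 52.0%, the fourth 37.1%, the fifth 36.5% and all later introns 0%. With peaks less than 1 kb apart joined, 8 peaks made a region of 21.8 kb from -5.96 to 15.8 kb. Among protein-coding genes the percentile of Bmpr1a was 91.2 for coverage and 97.6 for the number of peaks.

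Smad6 (ENSMUSG00000036867.7, chr9:63953076-64022059, minus strand) carried 27 peaks and was covered over 65.2% of its length. A TSS peak of 5957 bp ran from -1194 to 4762 over the first exon. The second intron was free of peaks (0%), whereas the third, of 53.5 kb, held 19 peaks and was 71.2% covered, and its widest peak measured 6139 bp (41599 to 47737). The neighbouring peak of 5592 bp contains the BMP response element shown above. In the flanks, 25.7% of the upstream and 21.9% of the downstream 30 kb were covered, and 3 of the flanking peaks lay within 3 kb of the TSS of a noncoding transcript.

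Smad7 (ENSMUSG00000025880.11, chr18:75367529-75395935, plus strand) also antagonizes TGF-β signalling. It had 21 peaks, and all 5 of its annotated TSSs were covered, with the widest peak at the promoter (5415 bp, -1313 to 4101). The gene was 69.2% covered, with 100% of the first intron, 93.6% of the second, 52.9% of the third (12 peaks over 17.9 kb) and 100% of the fourth. Unlike Smad6, whose peaks in the third intron reached 6139 bp, the 12 peaks over the third intron of Smad7 included none of 5 kb.

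Id3 (ENSMUSG00000007872.3, chr4:136143497-136145755, plus strand) had the largest covered share of the 10 genes with flanks of 30 kb, at the 99.8th percentile of protein-coding genes and the 99.4th among 2818 of similar length. Id1 was above it with flanks of 10 kb (79.2% against 70.0%) and of 100 kb (48.8% against 40.5%). A peak of 15198 bp ran from -10754 to 4443 and held the whole gene, which is 2.26 kb long. Upstream, 87.2% of 30 kb was covered by that peak and 6 others. Downstream, 42.5% was covered, and 4 of the peaks there lay within 3 kb of the TSS of E2f2, a cell cycle transcription factor. Without those 4 the covered share of the window was 58.7%, still the highest of the members at this flank.

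Id1 (ENSMUSG00000042745.9, chr2:152736251-152737410, plus strand) had 17 peaks and was at the 98.0th percentile. The gene, 1.16 kb long, lay within a peak of 8874 bp (-2875 to 5998), and a second wide peak of 5767 bp lay upstream from -10587 to -4821. Both flanks were covered to a similar degree, 50.2% upstream and 43.6% downstream. Of the downstream peaks, 4 were at the promoter of Cox4i2, a lung-enriched subunit of cytochrome c oxidase, and without them the share was 42.1% instead of 47.9%.

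Id2 (ENSMUSG00000020644.9, chr12:25093799-25097140, minus strand) had 6 peaks, the fewest of the 8 members above the upper quartile, but 2 of them were wide. A peak of 6371 bp (-1990 to 4380) held the gene with its 3 TSSs, and a peak of 5888 bp lay upstream between -18571 and -12684. Coverage was 37.8% upstream and 5.26% downstream, and all the peaks outside the gene except 1 of 538 bp lay upstream. Among protein-coding genes its percentile was 84.1.

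Id4 (ENSMUSG00000021379.2, chr13:48261228-48266026, plus strand) also had 6 peaks, none of 5 kb. Its TSS peak measured 2204 bp (-248 to 1955) and ended within the gene, of which 40.8% was covered, whereas Id1, Id2 and Id3 were covered over 100% of their length. That peak still contains the BMP response element of intron 2. The other peaks measured between 471 and 2119 bp, and 3 of the 6 lay more than 20 kb upstream. With 11.4% of the window covered, Id4 was at the 55.9th percentile of protein-coding genes, against a percentile of 86.4 for the gene alone.

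**Figure D4:**
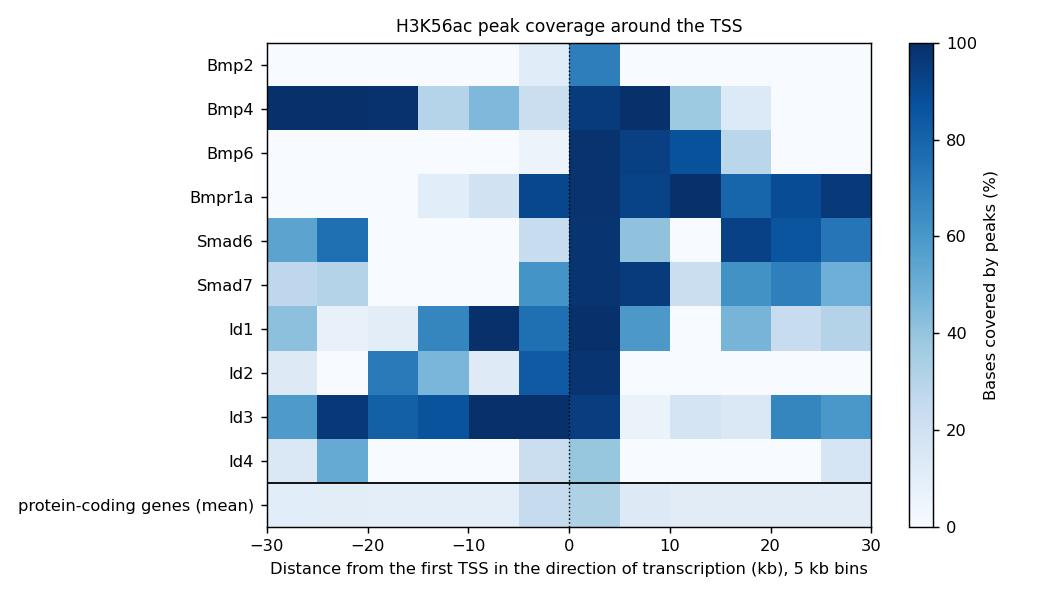
Share of bases covered by peaks, in percent, in 5 kb bins from 30 kb before to 30 kb after the first TSS of each gene, with the mean over protein-coding genes in the last row. In the bin after the TSS the members range from 39.1% (Id4) to 100% (Id1) against a mean of 32.3%, and Id3 and Bmp4 stay dark far upstream.

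Coverage in 5 kb bins differed in shape between the members. In the first 5 kb after the TSS, coverage was at least 94.4% for 8 members, 69.6% for Bmp2 and 39.1% for Id4, where the mean of protein-coding genes was 32.3%. Bmp6 and Bmp2 had at most 11.6% in any bin before the TSS. Bmp4 had 99.4%, 100% and 99.0% in the 3 bins farthest upstream, Id3 had at least 58.6% in all 6 upstream bins, and the mean of protein-coding genes in the bins from 30 to 5 kb upstream was between 9.86% and 10.8%. Bmpr1a kept at least 79.6% in all 6 bins after the TSS, all of them within the gene.

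By position, 15 of the 170 peaks lay over a TSS of their gene and 13 more within 3 kb of one. Another 12 lay within 3 kb of a TSS of another coding gene (Gm15217, Txndc5, Cox4i2 and E2f2). There were 75 in the gene away from those TSSs, 5 in another coding gene and 9 between coding genes near a noncoding TSS. The remaining 41 lay between coding genes away from any TSS. Peaks in a gene were not classed by noncoding TSSs, so the 75 include the Bmp6 peak over the start of 4930579J19Rik. Peaks over a TSS were the widest class, with a median of 4195 bp against 1284 bp inside the genes and 993 bp between genes. Of the 75 peaks inside genes, 24 were in Bmp6, 21 in Bmpr1a, 19 in Smad6 and 11 in Smad7. Of the 41 between genes away from TSSs, 13 were at Id3, 8 at Bmp4 and 7 at Id1. This split between long and short genes follows in part from the classes themselves. The Id genes are between 1.16 kb (Id1) and 4.80 kb (Id4) long and leave little sequence more than 3 kb from a TSS.

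Pooled over the members, the BMP response element was denser under peaks than elsewhere, and this rests on the Id genes. Of the 9 matches in member peaks, 3 were at Id3, 2 at Id1, 2 at Id2, 1 at Id4 and 1 in Smad6. The Id genes were members as known targets of BMP signalling, so matches there were to be anticipated. The densities and counts that follow are a description and no independent evidence of enrichment at the members. The comparison sets were not matched for GC or CpG content. There were 2.41 matches per 100 kb in member peaks and 0.166 in the rest of the windows, against 0.380 in all peaks and 0.158 over the assembled chromosomes. At least 1 match in a peak of the window was found for 5 of 10 members and for 5.66% of protein-coding genes. At least 2 were found for Id1, Id2 and Id3, and for 79 protein-coding genes (0.360%), and at least 3 for Id3 and for 6 protein-coding genes (0.0273%). These counts over all genes were added after the matches had been seen. In each Id gene the matches inside peaks fell into the TSS peak. A match is a stretch of letters, and binding of Smads in these cells was not measured here.

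A palindrome of 8 letters to which Smads are known to bind, GTCTAGAC, was searched after the results for the longer element had been seen. It occurred between 1500 bases before and 500 after the first TSS in Smad6 (at -4) and Smad7 (at -353), both inside the TSS peak, and in no other member. Of 21938 protein-coding genes 364 (1.66%) had it there. The longer BMP response element occurred in the same region of Id1 and Id3, and in 306 protein-coding genes (1.39%). Over the whole windows the palindrome had 11 matches, of which 5 lay in peaks, in Bmp6, Smad6, Smad7 and Id1.

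RefSeq promoter sequence, from 250 bases before to 50 after the RefSeq start on GRCm38.p6, was matched for 7 of the 10 genes (Bmp4, Bmp6, Bmpr1a, Smad6, Id2, Id3 and Id4). The RefSeq start is not always the first annotated TSS used above. It lay 1048 bases from it at Id2, 795 at Bmpr1a, 609 at Bmp6, 325 at Id3 and 112 at Id4. GC content ranged from 60.0% (Id3) to 79.3% (Bmpr1a), and the median of 16522 promoters was 57.0%. The ratio of observed to expected CpG ranged from 0.419 (Bmp4) to 1.02 (Bmpr1a), with a median of 0.598 over all promoters. Peaks covered 100% of these promoters at 5 genes, 95.0% at Bmpr1a and 62.0% at Id4. The promoter with the lowest CpG ratio (Bmp4) was fully covered, and that of Id4, covered least, had a ratio of 0.988. The uncovered bases at Id4 and Bmpr1a lay in gaps of 178 bp and 15 bp between neighbouring peaks. A relation of coverage to CpG content was not tested.

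Other genes of the pathway were counted by role. Of 48, 32 had a peak over a TSS, 36 within 3 kb of one and 15 had a TSS peak of at least 5 kb. Over all protein-coding genes these shares were 62.1%, 67.8% and 15.2%, so a TSS peak was about as common in the 48 as in any gene. The 62.1% also applies to the TSS counts of each role below. The median covered share was 15.9%, against 9.45% for protein-coding genes. The 11 other ligands were mostly uncovered. Only 3 had a TSS peak, the median was 2.61%, and the range was from 0% (Bmp3, with Bmp15 and Gdf2 also at 0) to 25.1% (Gdf7), so Bmp4 and Bmp6 were above every other ligand and Bmp2 was not.

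Of 10 other receptors and co-receptors, 9 had a TSS peak, with a median of 24.1% between Bmpr1b (2.55%), the type I receptor most like Bmpr1a, and the BMP co-receptor Rgma (61.6%). The 4 receptor-activated and common Smads all had a TSS peak and ranged from 11.6% (Smad4) to 24.0% (Smad5), below both inhibitory Smads. Secreted and membrane antagonists were mixed, with a TSS peak at 8 of 15, a median of 7.93% and a range from 0% (Grem1) to 48.0% (Dand5). At Dand5 the coverage lay mostly in the flanks, since no peak came within 3 kb of a TSS and 16.2% of the gene was covered. The 5 intracellular inhibitors ranged from 13.1% (Smurf2, a ubiquitin ligase) to 89.0% (Ski, a Smad corepressor). The 3 E proteins, the partners of Id proteins, ranged from 19.8% (Tcf12) to 44.1% (Tcf4). These shares carry no replicate error, and the differences between roles were not tested.

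**Figure D5:**
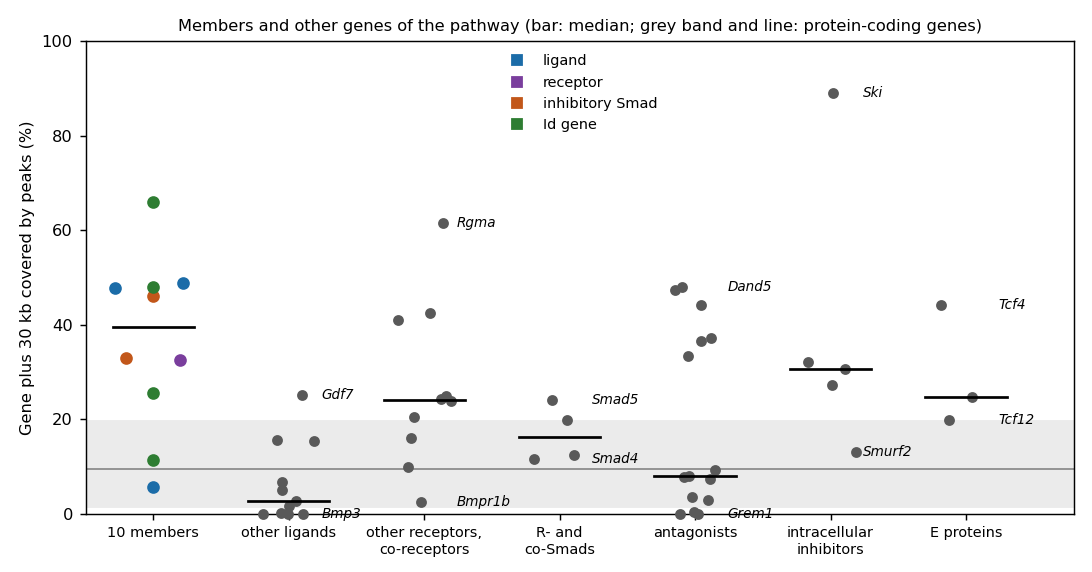
Share of the gene plus 30 kb covered by peaks, in percent, for the 10 members (coloured by role) and 48 other genes of the pathway (grey), 1 point per gene, with medians as bars and the median and quartiles of protein-coding genes as a grey line and band; the lowest and highest gene of each role are named. The other ligands have a median of 2.61% and the members one of 39.4%.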

How the data were processed

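The authors aligned reads to mm10 with Bowtie, keeping single alignments, removed duplicates, called peaks with MACS2, removed blacklisted regions and merged overlapping peaks with GenomicRanges. The deposited list gives positions only. The authors left its score column at 0 in every row, so the score values were not used, and it has 0 columns of values per sample. Which libraries entered the merge is not given in the sources used here. Merging widens and fuses peaks, and dropping multiply aligned reads lowers the chance of a peak in repeats.

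Peaks were intersected with GENCODE vM21 genes plus 30 kb (Python 3.11.15, numpy 2.4.6, overlap of at least 1 bp, functions tested on simulated intervals). Ties in percentiles count at mid-rank. The main transcript is the one with most exons. Coordinates count from 1.

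The members and lists were chosen with earlier results of these data known, so no test was run over them. All members are named, the lowest and highest gene of each other role, and coding genes whose TSS lies within 3 kb of a member peak. Marker genes are the lists of the design. In addition, Bmp15 and Gdf2 were named after their values were seen.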

Additional observations from a re-analysis of the deposited data

How the results depend on the processing

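For 39 results, 177 alternative values were computed, of which 138 stayed within 1.5 times the reported value and 39 did not. No value has a sign that could reverse, but the order of the role medians changed with the flank. With flanks of 30 kb the ligands were highest and the receptor lowest. With flanks of 100 kb the Id genes were highest (29.6%) and the ligands lowest (24.3%). Without flanks the Id genes were highest (100%) and the receptor lowest (45.4%). The number of peaks was 98 without flanks, 329 with flanks of 100 kb, 95 with peaks of at least 1 kb and 62 with peaks less than 1 kb apart joined. The covered share of all windows was 60.4% without flanks. The ligand median was 24.3% with flanks of 100 kb, and leaving out 1 ligand in turn gave 26.8% to 48.3%, so it rests on both Bmp4 and Bmp6. The inhibitory Smad median was 67.2% without flanks, and the Id median 100% without flanks and 55.8% with flanks of 10 kb. The element was found in 1 member in the narrower region around the TSS (250 bases before to 50 after), and in 5 members when any peak of the window was searched. Leaving out peaks near other coding genes' TSSs, an alternative chosen after seeing the data, gave 36.1% for all windows. Bmp2 was lowest under every flank except 10 kb, where Id4 was, and Id1 was highest with flanks of 10 and 100 kb. With peaks less than 1 kb apart joined, the widest peak near a TSS grew from 6887 to 56161 bp at Bmp6 and from 3329 to 21751 bp at Bmpr1a. No paired analysis was possible because the peaks are not listed by library.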
